A study of Homo sapiens with 16 samples.

Results

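The genes described here are 40 genes of homologous recombination, of the Fanconi anaemia pathway and of the DNA damage checkpoint, chosen by name. All 40 were present in each of the authors' 4 deposited tables, which had 19344 genes in common. The tables come from RNA sequencing of U2OS, a human osteosarcoma cell line with wild-type p53, and address the transcriptome regulated by the transcription factor RFX7. Poly(A) RNA was sequenced in 16 libraries, 4 for each of 4 groups: control siRNA (siControl) with DMSO, siControl with Nutlin-3a, siRNA against RFX7 (siRFX7) with DMSO, and siRFX7 with Nutlin-3a. Nutlin-3a, which keeps MDM2 from binding p53 and thereby lets p53 accumulate, was given at 10 µM for 24 h, and DMSO is its solvent. The labels name no other genetic change, so as far as they say, the groups share 1 line and differ in siRNA and compound only. They do not say how many siRNA sequences were used, or whether the 4 libraries of a group came from separate cultures, so p-values measure the spread between these libraries, which may be technical.

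Homologous recombination repairs a broken chromosome by copying the intact sister, and is used mainly in S and G2 phase. The ends are first resected to single strands, BRCA2 prepares these for strand exchange, and the joint molecules formed by strand exchange are later dissolved or cut. The Fanconi pathway unhooks crosslinks between DNA strands: a core ubiquitin ligase marks the pair FANCI and FANCD2, which calls in nucleases and recombination factors. The kinases ATM and ATR, with CHEK2 and CHEK1 below them, hold the cell cycle while DNA is damaged. Many of these genes are transcribed periodically, with a peak around S phase, and E2F proteins are known regulators of several of them.

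No single library was available for any gene, so each value below is the mean of 4 libraries, its error is the authors' standard error (SE), and the overlap of libraries between groups cannot be given. The checks on the labels came out as follows. RFX7 stood at 2237 normalised reads in siControl with DMSO, 2657 with Nutlin-3a, 417 in siRFX7 with DMSO and 515 in siRFX7 with Nutlin-3a. MDM2, a p53 target, stood at 4710 and 34905 normalised reads in siControl and at 4707 and 31954 in siRFX7, with DMSO and Nutlin-3a respectively. CDKN1A, another p53 target, stood at 4108 and 38870 in siControl and, with higher levels, at 6207 and 48995 in siRFX7. The signs of RFX7, MDM2 and CDKN1A also served to fix the direction of the tables, so only the sizes of these differences bear on the labels. Of the 9 markers of the bone lineage, 7 were measured in the siControl table: COL1A1, SPARC, RUNX2, ALPL and SPP1 had base means (mean normalised reads per library) from 170 to 39039, whereas COL1A2 and BGLAP had 13.2 and 4.25, and SP7 and IBSP had no row. Among 8 markers of epithelium, blood, endothelium, liver and muscle, EPCAM and CDH1 had base means of 191 and 121, PTPRC, PECAM1, CDH5 and DES had 2.66 to 9.92, and CD3E and ALB had no row. The summed level of the 4 such markers with a row in all tables was 329 in both siControl groups, 514 in siRFX7 with DMSO and 538 in siRFX7 with Nutlin-3a. The part of these in the results was not tested.

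The 40 genes covered a wide span of transcript levels. In siControl with DMSO, the mean normalised read count ran from 114 for RAD54B to 10206.5 for MSH6, with a median of 1711. Per kilobase of exon, counted over all exons annotated for a gene in GENCODE 29, the median was 260 normalised reads. Such lengths, for example 23972 bases for ATM and 10993 for MSH6, can exceed that of the transcript expressed. The order of genes on this measure is therefore approximate. USP1, which removes ubiquitin from FANCD2, stood highest with 1368 per kilobase. It was followed by the mismatch repair gene MSH6 with 928, by TOPBP1, an activator of ATR, with 896, and by FANCG with 829. RAD54B and RAD50 were the lowest, at 21.5 and 22.4 per kilobase, below FANCB at 65.3, ATM at 89.2 and FANCF at 89.6. In GENCODE 29, 79.7% of the exon bases of RAD50 and 59.1% of those of RAD54B also belong to another gene on the same strand, against under 10% for each of the other 38. The level of these 2 genes is therefore uncertain if reads in shared exons were not counted. On the opposite strand, XRCC3 shared 76.7% of its exon bases, RAD54L 25.1% and FANCA 23.6%. The kit keeps the strand, but whether the counting used it is not given in the sources used here. PMS2, CHEK2 and FANCD2 have related pseudogene copies, and how their reads were divided is likewise not known.

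**Figure D1:**
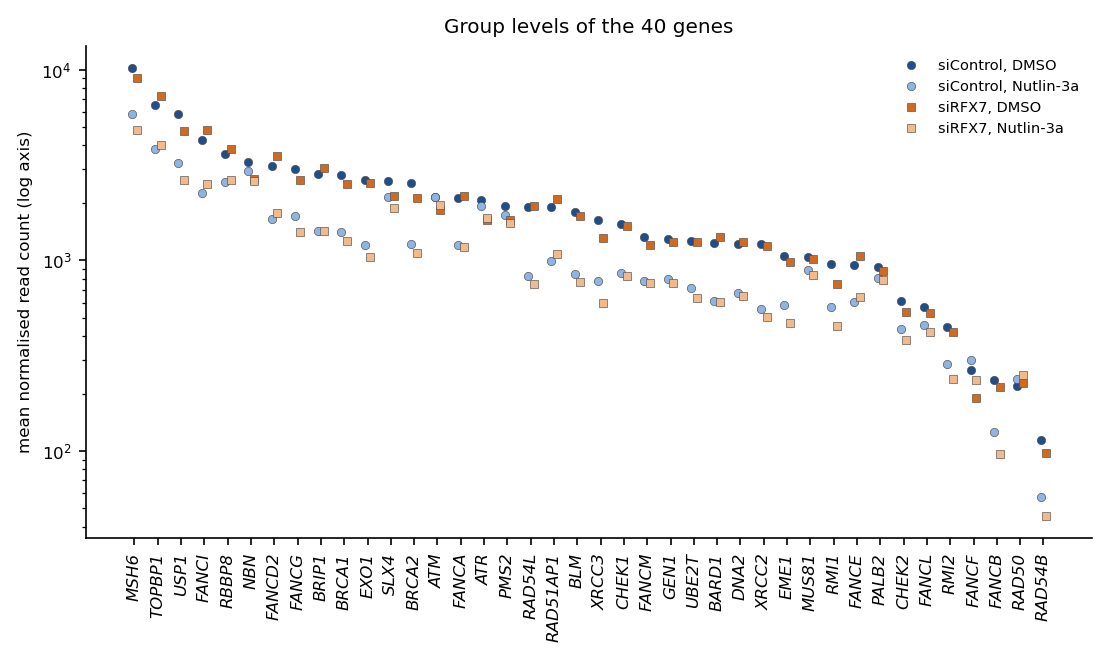
Mean normalised read count of each of the 40 genes in the 4 groups, on a log axis, with 1 point per group of 4 libraries and genes in order of the siControl DMSO level. Levels run from 114 for RAD54B to 10206.5 for MSH6 in siControl with DMSO, and for most genes the pale Nutlin-3a points lie below the dark DMSO points with either siRNA.

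With Nutlin-3a most of these genes fell, the called ones to between 43.5% (RAD54L) and 89.7% (PMS2) of their DMSO level in siControl. For siControl, the authors' deposited table had 36 of 40 lower at a Benjamini-Hochberg adjusted p under 0.05 (DESeq2), none higher and 4 not called: RAD50, FANCF, ATM and ATR. At an unadjusted p under 0.05, FANCF was the 1 gene on the higher side. Over all 23353 genes of that table, 19.6% were called lower and 18.3% higher. The median log2 fold change of the 40 was -0.81, which left 56.9% of the DMSO level, beside a median of 0.01 over all genes and of -0.03 over the 13525 genes with a base mean of 100 or more. Only 2.01% of those 13525 genes lay at or below -0.81. A log2 fold change of -1 or less was found for 7 of the 40, against 0.643% of the 13525. RNA libraries of bulk cultures cannot tell fewer cells that express a gene from less RNA per cell.

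The same held with siRFX7. In the authors' deposited table for those cells, 33 of 40 genes were lower with Nutlin-3a, 1 was higher (FANCF) and 6 were not called, beside 20.3% of 21382 genes called lower and 18.7% called higher. Their median log2 fold change was -0.88, or 54.4% of the DMSO level, with 0.01 over all genes. Of the 40, 10 were at -1 or less, against 1.38% of the 12867 genes with a base mean of 100 or more in that table. Lower in both tables were 33 of the 40, beside 17.0% of the 21339 genes present in both. PALB2, NBN and PMS2 were called lower in siControl only, and RAD50, ATM and ATR in neither table. Summed over the 40 genes, the level was 85161 normalised reads in siControl with DMSO and 52240.0 with Nutlin-3a, and 81006 and 48312 with siRFX7.

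**Figure D2:**
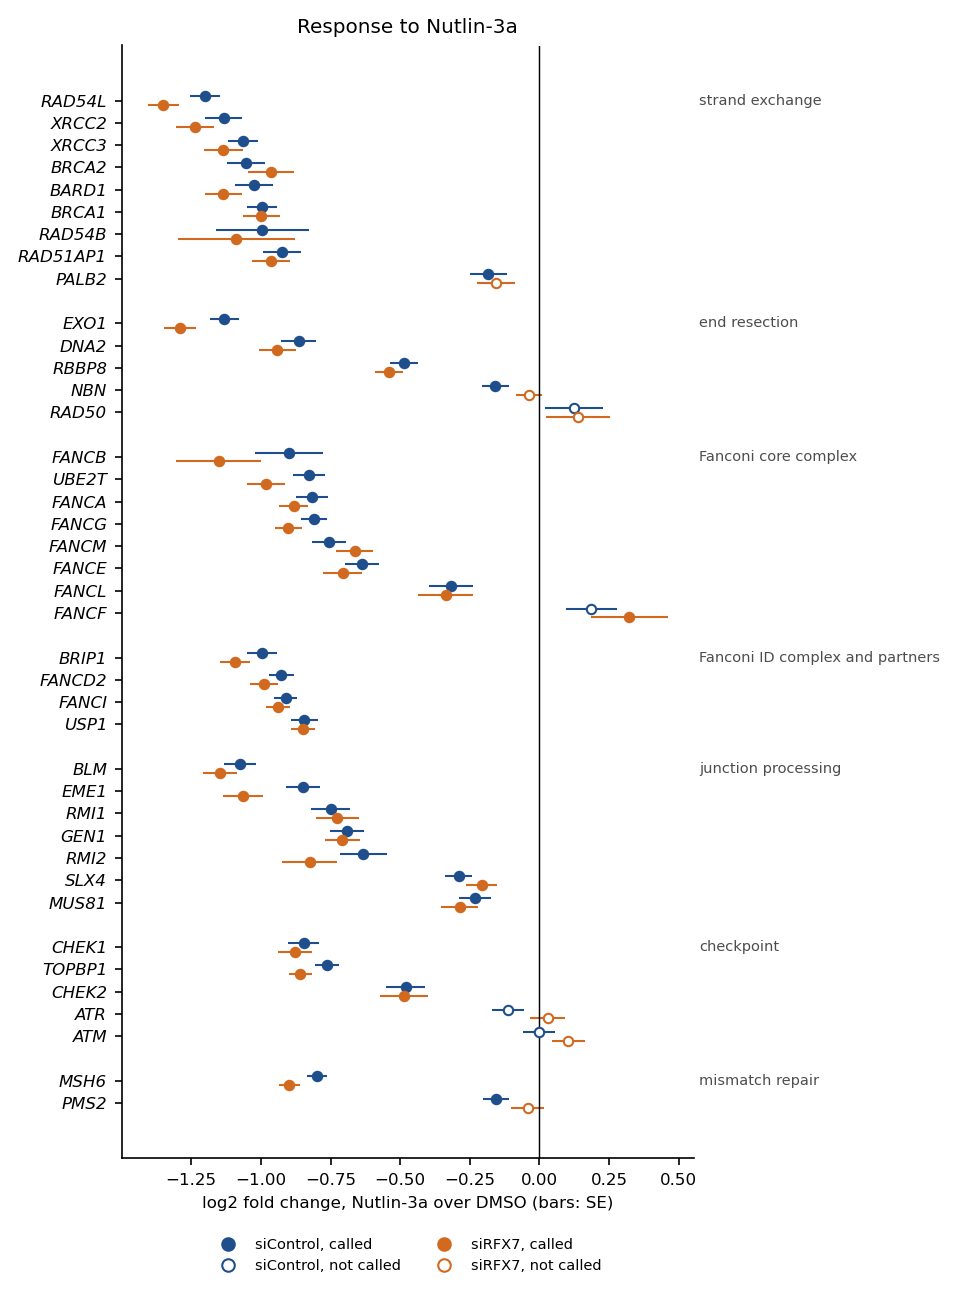
Log2 fold change of each of the 40 genes with Nutlin-3a over DMSO, in siControl (blue) and siRFX7 (orange), with the authors' SE as bars and genes grouped by role, filled points marking an adjusted p under 0.05. Nearly all points lie left of 0 in both colours, from -1.20 and -1.35 for RAD54L to 0.19 and 0.32 for FANCF.

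Strand exchange factors lay lowest as a group. All 9 were lower with Nutlin-3a in siControl, with a median log2 fold change of -1.02, and 8 of 9 in siRFX7, with a median of -1.09. RAD54L, a motor protein that helps strands to pair, stood at 1897 normalised reads in siControl with DMSO, 826 with Nutlin-3a, 1923 in siRFX7 with DMSO and 755 in siRFX7 with Nutlin-3a. Both of its Nutlin-3a groups were low and both DMSO groups high, at 43.5% and 39.2% of the DMSO level. By the authors' deposited tables, RAD54L changed on the log2 scale by -1.20 ± 0.05 (SE; adjusted p 1.5e-105) in siControl and -1.35 ± 0.06 (SE; adjusted p 1.14e-124) in siRFX7. XRCC2, a strand exchange factor, had 1211, 552, 1187 and 504 normalised reads in the same order of groups. Its log2 fold changes were -1.13 ± 0.07 (SE; adjusted p 3.33e-64) and -1.24 ± 0.07 (SE; adjusted p 1.56e-73) in the authors' deposited tables. XRCC3 (log2 fold changes of -1.07 and -1.13), BRCA2 (-1.05 and -0.96) and BARD1, which forms a ubiquitin ligase with BRCA1 (-1.02 and -1.14), fell to a like degree in siControl and siRFX7. BRCA1 itself was left at 50.1% of its DMSO level in siControl, and its response in siRFX7 differed from that by -0.00 ± 0.09 (SE). RAD51AP1, which stimulates strand exchange, had -0.92 and -0.96, and RAD54B, a relative of RAD54L, -0.99 and -1.09.

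PALB2 stood apart from the other strand exchange genes. This bridge between BRCA1 and BRCA2 had 919 normalised reads in siControl with DMSO, 810 with Nutlin-3a, 881 in siRFX7 with DMSO and 791 in siRFX7 with Nutlin-3a. Its level with Nutlin-3a was 88.1% of that with DMSO in siControl, where its log2 fold change in the authors' deposited table was -0.18 ± 0.07 (SE; adjusted p 0.0156). In siRFX7 the value was -0.16 ± 0.07 (SE; adjusted p 0.0579), not called.

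Among the 5 genes of end resection the response was uneven. EXO1, a nuclease that extends the resected strand, had 2640 normalised reads in siControl with DMSO, 1205 with Nutlin-3a, 2551 in siRFX7 with DMSO and 1045 in siRFX7 with Nutlin-3a. This gave -1.13 ± 0.05 (SE; adjusted p 3.8e-106) and -1.29 ± 0.06 (SE; adjusted p 5.2e-109) in the authors' deposited tables. DNA2, the second long-range nuclease, went from 1224 to 672 and from 1249 to 651 normalised reads, a fall to 54.9% and 52.1%. RBBP8, also known as CtIP, which starts resection, fell less, by 0.49 and 0.54 on the log2 scale. NBN and RAD50, subunits of the MRN complex that senses the break, had the smallest values of the 5, while its nuclease MRE11, not among the 40, had -0.65 and -0.51 on the log2 scale. NBN was at 89.6% of its DMSO level in siControl (called) and at 97.5% in siRFX7 (not called), and RAD50 had 219, 238, 227 and 250.1 normalised reads, with 0.12 ± 0.10 (SE; adjusted p 0.40) and 0.14 ± 0.12 (SE; adjusted p 0.381) in the authors' deposited tables. The 95% interval for RAD50 in siControl reached from -0.08 to 0.33, so a fall of the size seen for EXO1 lay outside it.

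In the Fanconi core ligase, 7 of 8 genes were lower with Nutlin-3a in either siRNA background. FANCB, a small-count gene, had 235 normalised reads in siControl with DMSO, 126 with Nutlin-3a, 216 in siRFX7 with DMSO and 96.8 in siRFX7 with Nutlin-3a. Its log2 fold changes were -0.90 ± 0.12 (SE; adjusted p 1.91e-12) and -1.15 ± 0.15 (SE; adjusted p 6.14e-13) in the authors' deposited tables. UBE2T, the ubiquitin-conjugating enzyme that serves the core ligase, fell from 1265 to 712 and from 1252 to 634 normalised reads. FANCA (-0.82 and -0.88), FANCG (-0.81 and -0.90), the DNA translocase FANCM (-0.76 and -0.66) and FANCE (-0.64 and -0.71) followed. FANCL, the catalytic subunit, fell less, by 0.32 and 0.34 on the log2 scale.

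FANCF, an adaptor within the same core, took the opposite sign. It had 264 normalised reads in siControl with DMSO, 301 with Nutlin-3a, 189 in siRFX7 with DMSO and 237 in siRFX7 with Nutlin-3a, so its order over the 4 groups differed from that of every other core subunit. The authors' deposited tables gave 0.19 ± 0.09 (SE; adjusted p 0.0955) in siControl and 0.32 ± 0.14 (SE; adjusted p 0.0492) in siRFX7, the latter just inside the threshold. Centred on the median of all genes with a base mean of 100 or more, FANCF was also called higher in siControl, and at an adjusted p under 0.01 it was called in neither.

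The ID complex and its partners fell together, 4 of 4 with either siRNA, with medians of -0.92 and -0.96. BRIP1, a helicase that binds BRCA1, had 2843 normalised reads in siControl with DMSO, 1425 with Nutlin-3a, 3049 in siRFX7 with DMSO and 1432 in siRFX7 with Nutlin-3a. FANCD2 had 3126, 1644, 3513 and 1772 in the same order. Both genes had their highest level in siRFX7 with DMSO and their 2 lowest with Nutlin-3a. By the authors' deposited table for siControl, BRIP1 kept 50.1% of its DMSO level (adjusted p 1.51e-71) and FANCD2 52.6% (adjusted p 4.04e-93). USP1 fell from 5829.9 to 3248 normalised reads in siControl and from 4759 to 2646 in siRFX7, and FANCI, the partner of FANCD2, by 0.91 and 0.94 on the log2 scale.

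All 7 genes that process junctions were lower in both tables, over a range of sizes. BLM, the helicase that dissolves double Holliday junctions, had 1792 normalised reads in siControl with DMSO, 850.4 with Nutlin-3a, 1699 in siRFX7 with DMSO and 769 in siRFX7 with Nutlin-3a. This was a log2 fold change of -1.08 ± 0.06 (SE; adjusted p 5.9e-79) in siControl and -1.15 ± 0.06 (SE; adjusted p 6.77e-78) in siRFX7 by the authors' deposited tables. The BLM cofactors RMI1 and RMI2 fell by 0.75 and 0.63 in siControl and by 0.73 and 0.83 in siRFX7. The 2 subunits of the nuclease MUS81-EME1 moved unequally. EME1 had 1050 normalised reads in siControl with DMSO, 582 with Nutlin-3a, 979 in siRFX7 with DMSO and 469 in siRFX7 with Nutlin-3a, whereas MUS81 had 1043, 888, 1020.4 and 838. MUS81, the catalytic subunit, thus kept 85.2% and 82.0% of its DMSO level and EME1 55.5% and 47.8%. GEN1, another junction nuclease, fell by 0.69 and 0.71, and SLX4, a scaffold that binds MUS81-EME1, by 0.29 and 0.21.

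Within the checkpoint group, the 2 kinases at the top were not called and the 3 genes below or beside them were lower. ATM had 2138 normalised reads in siControl with DMSO, 2135 with Nutlin-3a, 1825 in siRFX7 with DMSO and 1961 in siRFX7 with Nutlin-3a. Its log2 fold change of -0.00 ± 0.06 (SE; adjusted p 0.989) in the authors' deposited table for siControl had a 95% interval from -0.11 to 0.11. ATR was at 92.5% of its DMSO level in siControl (adjusted p 0.104) and at 102.1% in siRFX7 (adjusted p 0.767), by the authors' deposited tables. CHEK1, the kinase that ATR activates, went from 1549 to 862 normalised reads in siControl and from 1518 to 827 in siRFX7. TOPBP1 went from 6545 to 3855 and from 7242 to 3999.7, and CHEK2, the target of ATM, kept 71.7% and 71.4%. Of the mismatch repair pair, MSH6, which recognises the mismatch, fell from 10206.5 to 5868 and from 8992 to 4832 normalised reads. PMS2, which nicks the faulty strand, was at 89.7% in siControl (called) and 97.1% in siRFX7 (not called).

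The RefSeq promoter table of GRCh38.p14, which runs from 250 bases before to 50 after a transcription start, held 35 of the 40 genes (RAD54B, NBN, DNA2, FANCI and RMI2 had no entry by symbol). An E2F-type motif, searched as TTTCCCGC, TTTCGCGC, TTTGCCGC or TTTGGCGC on both strands, was found in 9 of 35 (25.7%). It was present in 3.99% of all 27305 genes of the table and in 6.89% of those with a base mean of 100 or more in the siControl table. The 9 were XRCC2, EXO1, FANCA, FANCD2, RMI1, GEN1, TOPBP1, MSH6 and PMS2. The shorter CHR element TTTGAA, known from genes that peak later in the cycle, was found in 4 of 35 (11.4%; UBE2T, USP1, BRIP1 and ATM), beside 18.2% of all genes and 13.7% of those with a base mean of 100 or more. Both motifs were searched with no mismatch, and neither contains the other. A match describes the letters in the window and is not evidence of binding. The 8 genes with the lowest log2 fold change in siControl among those with a match are shown as windows of 30 bases, 5′ to 3′ in the direction of the gene. Capitals mark the E2F-type match in XRCC2, EXO1, FANCD2, FANCA and MSH6, and the CHR match in BRIP1, USP1 and UBE2T. USP1 had 2 CHR matches, of which the 1 nearer the start is shown.
XRCC2, chr7:152676102-152676131, minus strand: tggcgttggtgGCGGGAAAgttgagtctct
EXO1, chr1:241848197-241848226, plus strand: aaaggtcagccTTTCGCGCgctgtgtaggc
BRIP1, chr17:61863749-61863778, minus strand: tatcgccggtTTCAAAagtcaaactgagac
FANCD2, chr3:10026424-10026453, plus strand: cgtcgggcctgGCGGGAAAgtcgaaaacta
USP1, chr1:62436965-62436994, plus strand: ggaaccggcaatTTCAAAggacgccacgtt
UBE2T, chr1:202342072-202342101, minus strand: cgcgcgctctcaTTTGAAtgcgtgagcgtt
FANCA, chr16:89816801-89816830, minus strand: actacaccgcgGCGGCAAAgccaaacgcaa
MSH6, chr2:47783137-47783166, plus strand: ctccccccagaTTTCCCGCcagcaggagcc
Relative to the listed start, the E2F-type match began at -2 in FANCD2, 4 in MSH6, 5 in EXO1, 22 in XRCC2 and -172 in FANCA. In the other 4 genes with one it began at 2 (GEN1), -7 (TOPBP1), -32 (RMI1) and, from 2 listed starts, -43 and -100 (PMS2). The median log2 fold change in siControl was -0.80 for the 9 genes with an E2F-type match and -0.82 for the 26 without, and -0.84 with and -0.80 without a CHR match.

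Other genes of the same pathways, taken from 4 fixed lists, gave mixed counts. The 40 genes and these lists were all drawn up with results of these data known. Of 66 such genes measured, 39 were lower, 11 higher and 16 not called in siControl, with a median log2 fold change of -0.29. In siRFX7 the counts were 37 lower, 9 higher and 20 not called, with a median of -0.27. By list, 14 of 23 recombination genes, 6 of 14 Fanconi genes, 16 of 24 checkpoint and damage signalling genes and 3 of 5 mismatch repair genes were lower in siControl. Among the lowest called were CLSPN, which helps ATR to activate CHEK1 (-1.21 and -1.32 in siControl and siRFX7), and CDC25A, a phosphatase that checkpoint kinases target (-1.09 and -1.33). The highest were ABRAXAS1, a partner of BRCA1 (0.32 and 0.46), the nuclease subunit gene ERCC4 (0.28 and 0.42) and RAD52, which anneals single strands (0.23 and 0.33).

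End joining, which rejoins breaks without a template, gave mixed counts. Of its 10 genes, 4 were lower and 2 higher in siControl, with a median log2 fold change of -0.08, and of the 9 measured in siRFX7, 4 were lower and 3 higher, with a median of -0.18. Of the cell cycle genes, 20 of 20 were lower in each table, with medians of -0.93 and -1.15. Their summed level fell from 185189 to 102043 normalised reads in siControl, or to 55.1%, and from 194283 to 93471 in siRFX7, or to 48.1%. The summed level of the 40 repair genes was 61.3% and 59.6% of DMSO over the same groups. The p53 response genes went the other way, with 12 of 12 higher in both tables and medians of 2.08 and 2.11. What part the cell cycle genes' change has in that of the repair genes was not tested.

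**Figure D3:**
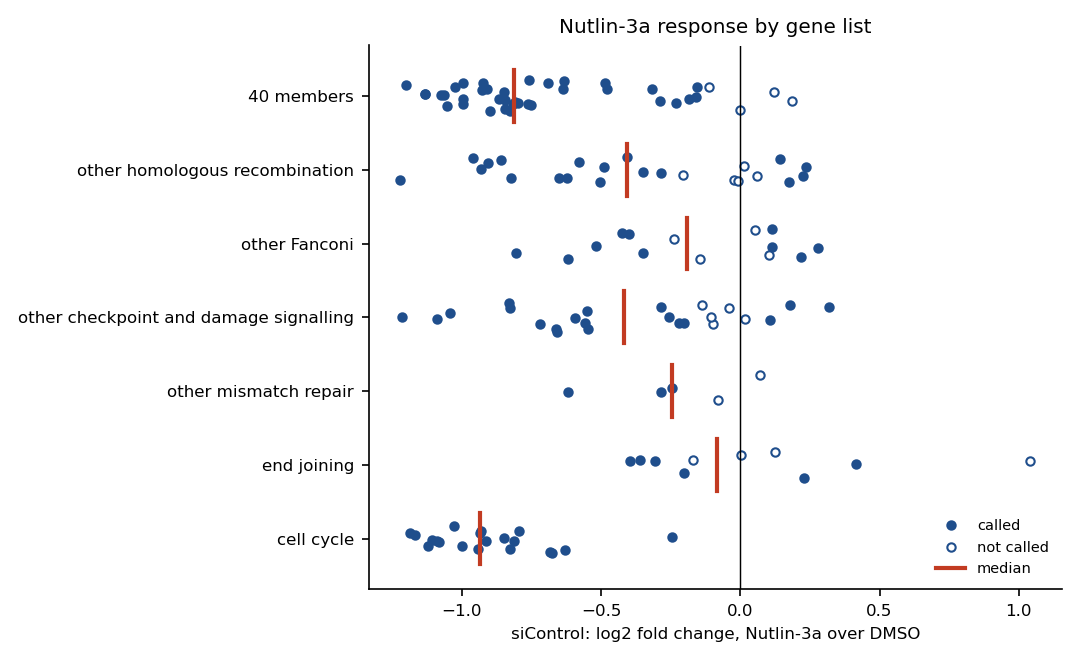
Log2 fold change with Nutlin-3a over DMSO in siControl for the 40 genes described here (40 members), 4 lists of other genes of the same pathways, end joining and cell cycle, with 1 point per gene, filled where the adjusted p was under 0.05, and the median of each list as a bar. The medians are -0.81 for the 40 genes, -0.08 for end joining and -0.93 for the cell cycle.

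The siRNA against RFX7 went with small changes of the 40 genes, in both directions. These comparisons share libraries with those of Nutlin-3a, so the values stand side by side and were not correlated with them. In the authors' deposited table under DMSO, 15 were lower, 4 higher and 21 not called (adjusted p under 0.05, DESeq2), where 17.5% of 19511 genes were called lower and 19.9% higher. Their median log2 fold change was -0.08, with -0.00 over all genes, and single values lay between -0.48 and 0.18. Under Nutlin-3a, 14 were lower, 1 higher and 25 not called, beside 15.4% of 20335 genes lower and 17.2% higher, with a median of -0.13 against -0.01 over all genes. Under both treatments 11 genes were lower, beside 11.9% of the 19346 genes in both tables, and 1 was higher, beside 14.2%. These 11 were XRCC3, NBN, FANCF, FANCG, USP1, RMI1, SLX4, ATM, ATR, MSH6 and PMS2. The cell cycle list had 1 lower and 5 higher of its 20 genes with DMSO, and 12 lower and 1 higher with Nutlin-3a, and its summed level with siRFX7 was 104.9% and 91.6% of siControl. The part of this in the repair genes' values was not tested.

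The genes with the largest falls came from different steps of repair. FANCF fell to 71.5% of siControl under DMSO (-0.48 ± 0.11, SE; adjusted p 3.55e-05) and to 78.8% under Nutlin-3a (-0.34 ± 0.12, SE; adjusted p 0.0129), by the authors' deposited tables. RMI1 had 955 normalised reads in siControl and 747 in siRFX7 under DMSO, and 568 and 452 under Nutlin-3a. Its log2 fold changes were -0.35 ± 0.07 (SE; adjusted p 6.9e-07) and -0.33 ± 0.08 (SE; adjusted p 0.000346) in the authors' deposited tables. ATR, which had not been called with Nutlin-3a, stood at 2072 in siControl and 1630.35 in siRFX7 under DMSO, and at 1917 and 1666 under Nutlin-3a. This gave -0.35 ± 0.06 (SE; adjusted p 1.01e-07) and -0.20 ± 0.06 (SE; adjusted p 0.00204) by the authors' deposited tables. XRCC3 had the lowest value under Nutlin-3a, -0.39 ± 0.07 (SE; adjusted p 3.81e-07), and -0.32 ± 0.05 (SE; adjusted p 6.69e-08) under DMSO, with 1630.5 and 1308 normalised reads there. ATM, MSH6, PMS2 and USP1 were lower by 0.18 to 0.29 on the log2 scale under DMSO and by 0.12 to 0.30 under Nutlin-3a.

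Of the 4 genes called higher with siRFX7 under DMSO, FANCI, FANCD2 and FANCE are Fanconi genes and TOPBP1 is a checkpoint gene. Of the 12 genes placed here in the core ligase or in the ID complex and its partners, 3 were thus higher under DMSO. Lower under DMSO were 4 of these 12 (FANCF, FANCG, FANCM and USP1), and under Nutlin-3a 1 was higher and 3 lower. Over all genes, 19.9% were called higher and 17.5% lower under DMSO, and 17.2% and 15.4% under Nutlin-3a. FANCI rose from 4256 to 4815 normalised reads under DMSO and from 2263 to 2514 under Nutlin-3a, with 0.18 ± 0.04 (SE; adjusted p 2.15e-05) and 0.15 ± 0.05 (SE; adjusted p 0.00658) in the authors' deposited tables. FANCD2, its partner, was 0.17 ± 0.04 (SE; adjusted p 0.000306) higher under DMSO and had 0.11 ± 0.05 (SE; adjusted p 0.0964) under Nutlin-3a, not called. FANCE had 0.16 ± 0.06 (SE; adjusted p 0.0179) and 0.09 ± 0.08 (SE; adjusted p 0.398), and TOPBP1 0.15 ± 0.04 (SE; adjusted p 0.000197) and 0.05 ± 0.05 (SE; adjusted p 0.428). All 5 called rises were under 15%: FANCI was at 113.1% of siControl under DMSO and at 111.1% under Nutlin-3a, FANCD2 at 112.4%, FANCE at 111.6% and TOPBP1 at 110.6%. BRCA1, BRCA2, FANCM and CHEK2 were called lower under DMSO only, and EXO1, RMI2 and EME1 under Nutlin-3a only. Of the 66 other pathway genes, 21 were lower and 12 higher with siRFX7 under DMSO, and 20 and 9 under Nutlin-3a, with medians of -0.08 and -0.09. A direct partner of the 40 named after its values were seen, MRE11, the nuclease of the MRN complex, had -0.34 ± 0.05 (SE) under DMSO by the authors' deposited table, a fall like that of NBN (-0.29 ± 0.05, SE). RAD50, the other MRN subunit, had 0.05 ± 0.11 (SE; adjusted p 0.754) in the same deposited table and was not called. Its value is uncertain, as 79.7% of its exon bases also belong to another gene on the same strand. Across the 40 genes the siRNA effects under the 2 treatments, which share no library, had a Pearson r of 0.81 and a Spearman rho of 0.82, as a description over genes that are not independent.

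**Figure D4:**
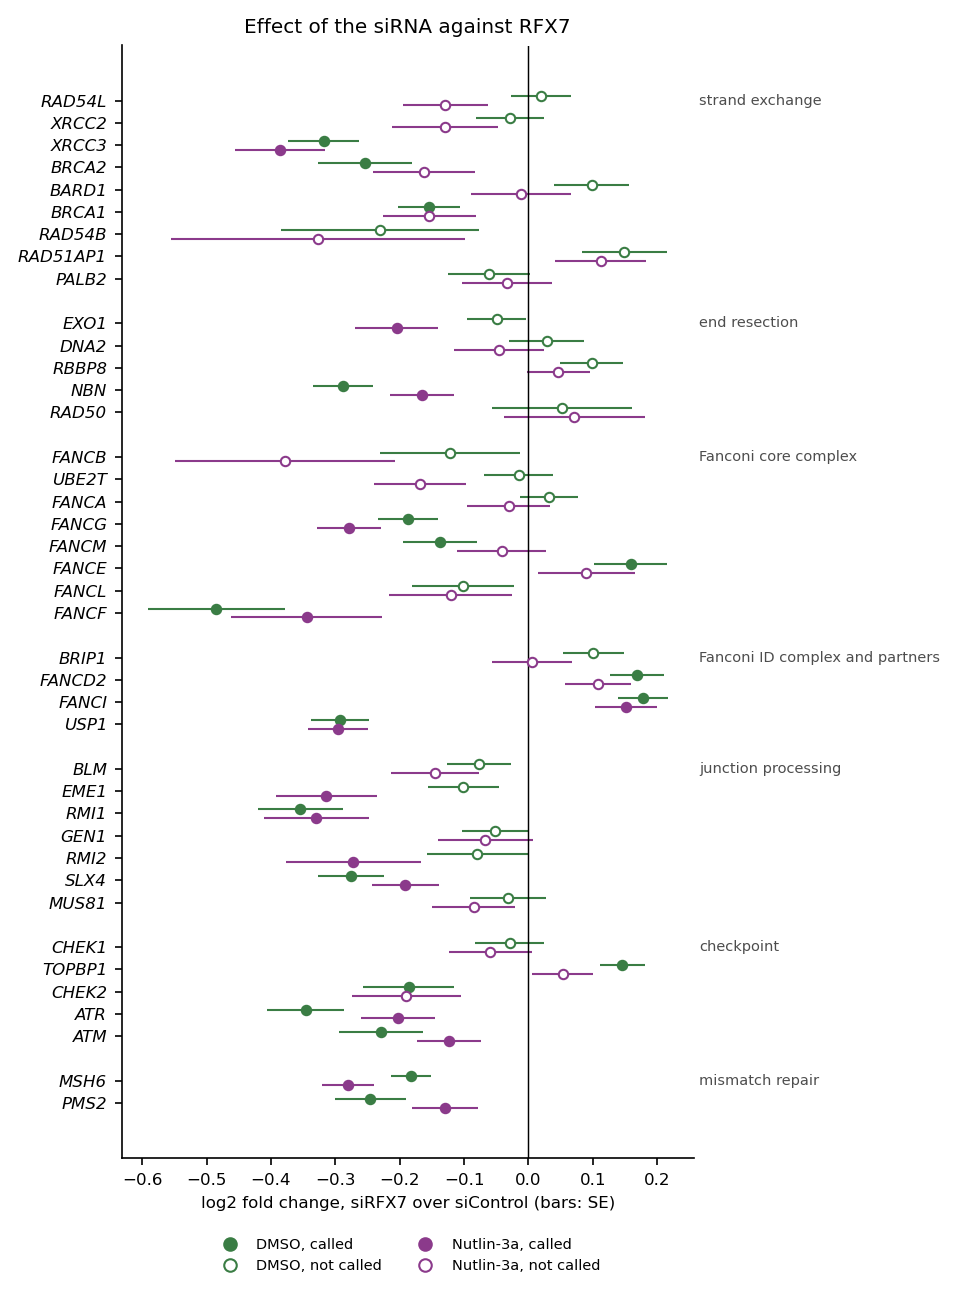
Log2 fold change of each of the 40 genes with siRFX7 over siControl, under DMSO (green) and Nutlin-3a (purple), with the authors' SE as bars and genes grouped by role, filled points marking an adjusted p under 0.05. Values lie between -0.48 and 0.18, a narrower span than with Nutlin-3a, and the 5 filled points right of 0 are FANCI under both treatments and FANCE, FANCD2 and TOPBP1 under DMSO.

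Part of a motif bound by RFX proteins and a short 3′ UTR sequence were searched in the same genes. The X-box is the motif that RFX proteins bind, and only a part of it, GTTGCC, was searched, on either strand. This part was found in the promoter window of 5 of 35 genes (14.3%), namely BRCA1, RAD50, EXO1, FANCF and ATM. It was present in 14.6% of all genes and in 16.8% of those with a base mean of 100 or more. A match to this part does not show a whole X-box and is not evidence of binding. With siRFX7 under DMSO these 5 genes had a median log2 fold change of -0.15, and the other 30 had -0.07. FANCF, the gene with the lowest value in that comparison, is shown with the match in capitals, which begins at -149 from the listed start.
FANCF, chr11:22625955-22625984, minus strand, GRCh38.p14: tagggcttttaaGTTGCCcagagtcaagga
The heptamer GTATCTA, picked in earlier work on these same fold changes, was found in the 3′ UTR (GENCODE 29) of 2 of 40 genes, GEN1 and ATM. It was carried by 8.90% of 11283 coding genes at a base mean of 100 or more under DMSO, of which 47.5% were lower with siRFX7, against 19.9% of the others. Because the heptamer was picked on these fold changes, that contrast follows from the choice and is no separate result. ATM was called lower and GEN1 was not called (-0.05 and -0.07). The other 14 genes lower under DMSO carried no such heptamer in that annotation. The stretch around the first match is given for both, with the heptamer in capitals, ATM being the 1 of the 15 genes lower under DMSO that carries it. ATM had 2 matches in the transcript searched and GEN1 had 1.
ATM, chromosome 11: gaagggcttagGTATCTAgtttgatacata
GEN1, chromosome 2: acagagggaagGTATCTAgttcatgtgtgg

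Whether knockdown changed the response to Nutlin-3a was tested as the response in siRFX7 minus that in siControl, which share no library. None of the 40 genes was called in either direction (two-sided normal test on the difference, Benjamini-Hochberg over 21339 genes), beside 0.764% of those genes called lower and 0.173% called higher. At an unadjusted p under 0.05 there were 2, EME1 with -0.22 ± 0.09 (SE; adjusted p 0.571) and EXO1 with -0.16 ± 0.08 (SE; adjusted p 0.737), and over all genes 1349. The difference was negative in 29 of 40 and positive in 11, with a range from -0.25 for FANCB to 0.14 for ATR. Its median was -0.05, beside -0.00 over all genes tested, and the 40 genes are not independent of each other. The interval at 95% was -0.64 to 0.13 for FANCB, -0.40 to -0.03 for EME1, -0.30 to 0.00 for RAD54L and -0.02 to 0.31 for ATR, so these data do not show that the responses were alike. Across the 40 genes the 2 responses had a Pearson r of 0.99 and a Spearman rho of 0.97, as a description. Among the 20 cell cycle genes, 8 were called lower in this test, and all 20 differences were negative, with a median of -0.20. Of the 66 other pathway genes WEE1, a kinase that holds back entry into mitosis, was called, with -0.29 ± 0.07 (SE; adjusted p 0.0131), and of the end joining genes XRCC4, a partner of DNA ligase IV, with 0.41 ± 0.12 (SE; adjusted p 0.0425).

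**Figure D5:**
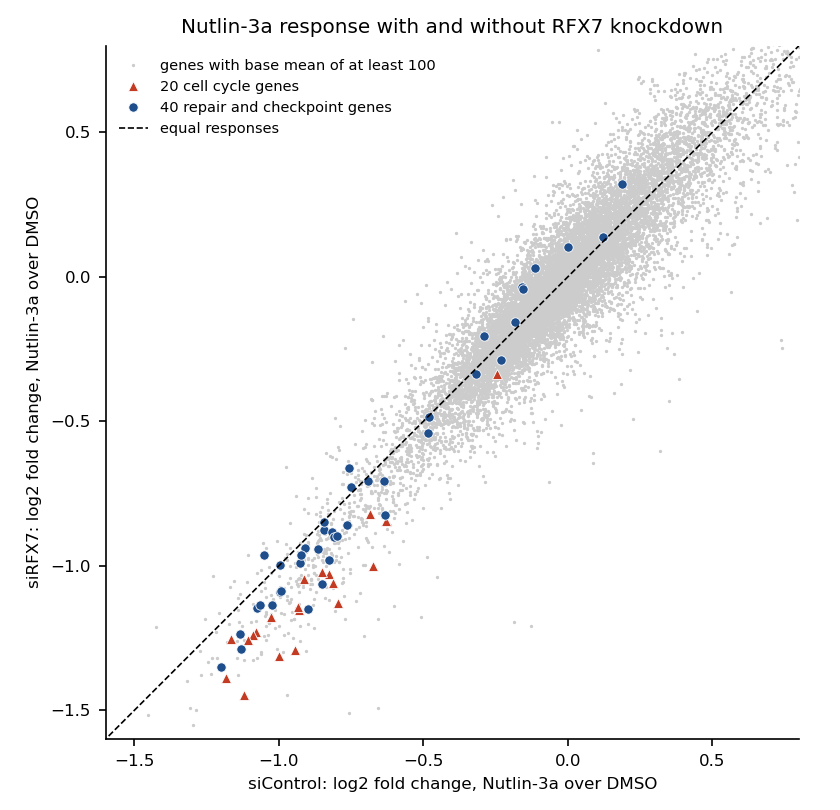
Log2 fold change with Nutlin-3a over DMSO in siRFX7 (vertical) against siControl (horizontal) for the 40 repair genes, the 20 cell cycle genes and all genes with a base mean of 100 or more that lie within the axes, with the line of equal responses dashed. The 40 genes lie near the line, 29 of them below it, and all 20 cell cycle genes lie below it, with a median difference of -0.20 against -0.05.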

How the data were processed

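The 16 libraries were grouped by their titles, and the files analysed were 4 deposited tables of comparisons of 2 groups each. Per the file headers, the authors compared groups with DESeq2. Per the submitters' processing notes, which give no role or order, the tools were bcl2fastq 2.19.1.403, Trimmomatic 0.39, cutadapt 2.10, FastQC 0.11.9, SAMtools 1.10, Picard, featureCounts 1.6.5 and DESeq2 1.20.0, with build hg38. The aligner and annotation are not given in the sources used here.

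The deposited base mean is a signal, the average of normalised reads per library in a comparison. The log2 fold changes and SE were the authors' values, as deposited, and the deposited Wald score and p-value were used for checks. The adjusted p is the authors' deposited Benjamini-Hochberg value, and genes were called at under 0.05. The tables held 19511 to 23353 genes, with base means summing to between 27946376 and 35311111, and the depth of single libraries is unknown. Table directions were set by RFX7, CDKN1A and MDM2 and by closure of the 4 tables (SD of the gap 0.00291, against 0.514 with a pair inverted).

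Group levels were computed from base mean and log2 fold change, on the scale of the siControl table. Differences of responses were tested with the SE of both tables combined. This step was tested on simulated data. Exon lengths, taken over the union of all annotated exons of a gene, and overlaps came from GENCODE 29. The members and lists were chosen with earlier results of these data known. A fixed rule picked the genes meant for values in full, though levels, SE or adjusted p are left out for some of them. It took the 2 lowest and the highest gene per role with Nutlin-3a in siControl and the 3 lowest and 3 highest called per siRNA comparison. From the other lists it took the 3 lowest and 3 highest called. Results of some of these other genes are not reported here. FANCF, ATM and GEN1 sequences beside the siRNA results were chosen after their values were seen. Alternatives were a stricter adjusted p, a minimum size, a base mean of 100 or more, centring and, chosen after seeing the data, leaving out genes with shared exons. Python 3.11.15, pandas 2.3.3 and scipy 1.17.1 were used.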

Additional observations from a re-analysis of the deposited data

How the results depend on the processing

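No paired analysis was possible because the tables hold only comparisons of groups, and for the same reason no library could be left out. No called gene of the 40 reversed direction under the alternatives run. With centring, 2 values near 0 that were not called changed sign, ATM with Nutlin-3a in siControl (-0.00 to 0.03) and BRIP1 with siRFX7 under Nutlin-3a (0.01 to -0.00). The counts lower with Nutlin-3a (36 in siControl, 33 in siRFX7) stayed within 1.5 times. The counts that moved further were small or rested on small changes. Centring on the median of genes with a base mean of 100 or more gave 1 gene higher with Nutlin-3a in siControl in place of 0, and an adjusted p under 0.01 gave 0 in siRFX7 in place of 1, both FANCF. Requiring a size of at least 0.25 on the log2 scale left 8 lower and 0 higher with siRFX7 under DMSO, in place of 15 and 4, and 8 lower and 0 higher under Nutlin-3a, in place of 14 and 1. No difference of responses was called under any alternative, including statistics divided by their robust SD. Leaving out 3 genes with over 50% shared exon bases (RAD50, RAD54B and XRCC3, an alternative chosen after seeing the data) gave 34 lower in siControl and 31 in siRFX7. Low counts limit FANCB, RAD50, RAD54B and FANCF, whose SE reached 0.09 to 0.23, while the median SE was 0.06 in siControl.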
